A study of Mus musculus with 21 samples.

Results

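The let-7 family guide arms are the 9 mature miRNAs let-7a-5p, let-7b-5p, let-7c-5p, let-7d-5p, let-7e-5p, let-7f-5p, let-7g-5p, let-7i-5p and miR-98-5p. They were taken by name from a table of 1125 mature miRNAs, and all 9 passed the filter on low reads that left 431 miRNAs for testing. The small RNA libraries were made from whole kidney of BALB/c mice, all male and 12 weeks of age, given 250 mg/kg of folic acid dissolved in 0.3 M sodium bicarbonate. Kidneys were taken on day 0 and on days 1, 2, 3, 7, 14 and 28, with 3 libraries on each of the 7 days and 21 libraries in all. Day 0 is labelled as 0 days after the injection, and the labels give no group that received bicarbonate alone and no group without folic acid on a later day. All groups share the strain, sex and labelled age. Nothing in the labels says whether the libraries of a day come from different mice, so a p-value here measures the spread between libraries, which may be technical. The libraries held 2875675 to 7110546 reads assigned to miRNAs, and the members were deep throughout, from 1842 reads of miR-98-5p in its shallowest library to 168047 reads of let-7f-5p in its deepest.

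A high dose of folic acid injures the renal tubule and is widely used as a model of acute kidney injury that passes into fibrosis. let-7 was among the earliest miRNAs described. Its members are cut from hairpin precursors, and the 5' strand of the hairpin is the guide that enters an Argonaute protein and directs it to messenger RNAs through the seed at bases 2 to 8. let-7 rises with differentiation in development, and its known targets include Lin28, Hmga2 and Ras transcripts. The Lin28 proteins in turn block the maturation of many let-7 precursors. Since all members carry the same seed, they are often treated as 1 pool of silencing activity that is fed from several loci.

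The mature sequences, which RefSeq lists for mouse (GRCm38.p6), are shown first because the results turn on telling these near-copies apart. Capitals mark the seed, bases 2 to 8 counted from 1 at the 5' end.
let-7a-5p: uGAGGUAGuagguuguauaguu
let-7b-5p: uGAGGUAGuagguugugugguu
let-7c-5p: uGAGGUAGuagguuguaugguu
let-7d-5p: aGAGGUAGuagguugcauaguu
let-7e-5p: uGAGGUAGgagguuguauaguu
let-7f-5p: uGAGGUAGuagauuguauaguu
let-7g-5p: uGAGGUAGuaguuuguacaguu
let-7i-5p: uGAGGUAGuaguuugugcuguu
miR-98-5p: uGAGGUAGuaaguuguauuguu

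All 9 are 22 bases long and have the seed GAGGUAG, so every difference between them lies outside the seed. Of the 36 pairs of members, 4 differ at 1 position, 10 at 2, 11 at 3, 9 at 4, 1 at 5 and 1 at 6. The 4 closest pairs are let-7a-5p with let-7c-5p (A19G), let-7a-5p with let-7e-5p (U9G), let-7a-5p with let-7f-5p (G12A), and let-7b-5p with let-7c-5p (G17A), where the first letter is the base of the member named first. let-7i-5p is nearest to let-7g-5p, from which it differs at 2 positions (G17A and U19A, let-7i-5p first), and stands 3 or more positions from each of the others. How the authors' counting treated a read with a mismatch is not given in the sources used here, so some exchange of reads within the closest pairs cannot be told apart from their own levels. The same seed occurs in 10 of the 839 rows that matched a RefSeq mature miRNA by name. The row beyond the members is miR-1961, which was listed at 0 in every library but 1 of day 28, where a single library held 0.25 CPM.

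In GRCm38 the members come from 12 hairpins on 7 chromosomes, read here from RefSeq and placed against the GENCODE vM21 annotation. The deposited table has no coordinates. let-7i stands alone, at chr10:122985640-122985724 on the minus strand, where it overlaps an exon of D630033A02Rik, a transcribed processed pseudogene on the same strand. let-7g is also alone, at chr9:106178840-106178927 on the plus strand in an intron of Wdr82. let-7e lies at chr17:17830352-17830444 on the plus strand in an intron of Spaca6, between miR-99b and miR-125a, with 112 bases from the end of miR-99b-3p to the start of let-7e-5p and 384 bases from let-7e-3p to miR-125a-5p. let-7d, let-7f-1 and let-7a-1 share the lincRNA 6720427I07Rik on chromosome 13, and let-7c-2 and let-7b share Lncppara on chromosome 15. let-7c-1 lies 656 bases from miR-99a in an intron of Mir99ahg on chromosome 16. let-7f-2 and miR-98 lie 785 bases apart in an intron of Huwe1 on the X chromosome. let-7a-2 lies on chromosome 9 with miR-100 and miR-125b-1. For let-7a, let-7c and let-7f, the guide is the same from 2 hairpins, so the deposited row cannot be assigned to a locus.

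The let-7i hairpin from RefSeq is printed because both of its arms are followed below. Capitals mark the guide, let-7i-5p, and then the passenger strand, let-7i-3p, which pairs with it in the hairpin and is mostly discarded.
Mirlet7i: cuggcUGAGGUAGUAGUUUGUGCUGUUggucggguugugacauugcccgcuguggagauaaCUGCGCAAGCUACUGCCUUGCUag

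let-7i-5p was higher than at day 0 on every later day, let-7e-5p on 5 of them by a smaller step, and let-7g-5p was lower on days 7 and 14. let-7c-5p and miR-98-5p passed the test on the high side on 2 days and 1 day. let-7a-5p, let-7b-5p, let-7d-5p and let-7f-5p passed it on no day. Levels are given as TMM-scaled CPM, that is, the deposited CPM (miRNA reads brought to the same total in each library) adjusted by the trimmed mean of M-values. Differences are log2 fold changes of CPM + 1 from limma, with 1 fit over the 21 libraries. A miRNA was called when its p-value, adjusted by the Benjamini-Hochberg method over the 431 miRNAs, was under 0.05. Each later day was set against the same 3 day 0 libraries, so these comparisons are not independent. let-7i-5p had been singled out with its rise already known, and its values carry no independent weight.

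let-7i-5p measured 2977, 2622 and 2481 CPM in the 3 day 0 libraries. It measured 5221, 5184 and 4841 CPM on day 1, then 6656, 6882 and 7837 CPM on day 2. All 6 of these libraries lay above the highest day 0 library, and day 2 lay above day 1 without overlap. The highest levels were on day 3, with 8733, 9095 and 8670 CPM, and on day 7, with 9643, 8708 and 8407 CPM. These 2 days overlapped each other, and every library of both stood above every library of days 0, 1 and 2. On day 14 it measured 6341, 5372 and 9292 CPM, so replicate 3 was as high as the libraries of day 7 and the other two were lower. On day 28 it measured 4136, 3751 and 4611 CPM, below every library of days 1 to 14 and above every library of day 0.

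The log2 fold change of let-7i-5p against day 0 was 0.92 on day 1 (SE 0.14, limma adjusted p = 4.63e-05) and 1.40 on day 2 (adjusted p = 1.24e-07). It reached 1.72 on day 3 (adjusted p = 4.03e-09) and 1.73 on day 7 (adjusted p = 4.14e-09), then 1.34 on day 14 (adjusted p = 1.75e-07) and 0.63 on day 28 (adjusted p = 0.00308). The day 3 change corresponds to a 3.29-fold higher level, and the 95% confidence interval of the day 7 change ran from 1.44 to 2.02. Being called higher on all 6 later days was shared by 19 of the 431 miRNAs tested, 4.41%. The day 14 value rests in part on replicate 3 of that day: without it the log2 fold change was 1.10 (adjusted p = 3.34e-07). In whole kidney, a larger share of cells that are rich in a miRNA and more of it in each cell cannot be told apart, here and in all results that follow.

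**Figure D1:**
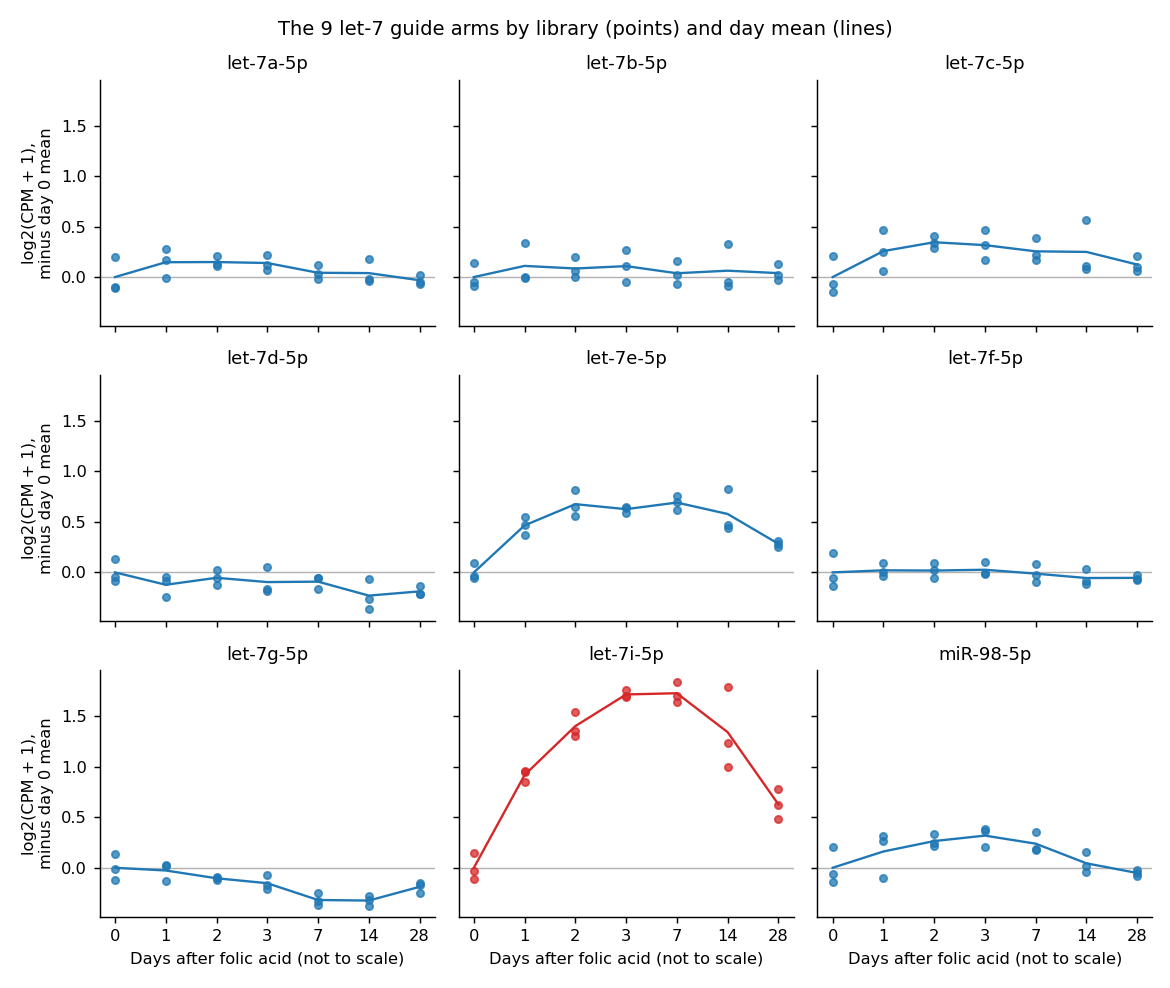
Each panel plots 1 guide arm in the 21 libraries (points, 3 a day) as log2(TMM-scaled CPM + 1) minus its day 0 mean, against the day after folic acid (axis not to scale), and the lines join the day means. let-7i-5p (red) leaves the day 0 level on day 1, peaks on days 3 and 7 and is still higher on day 28, let-7e-5p follows on a smaller scale, and let-7f-5p stays within the spread of its day 0 libraries.

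let-7e-5p, the scarcest member at day 0, moved the same way on a smaller scale. It measured 588, 530 and 539 CPM at day 0, and then 767, 810 and 713.5 CPM on day 1. On day 2 it measured 815.5, 866 and 972 CPM, and on day 3 it measured 858, 832 and 867 CPM. No library of these days came down to the day 0 range. It stood at 932, 897 and 848 CPM on day 7 and at 763, 750 and 979 CPM on day 14, the highest of which was again replicate 3. On day 28 it measured 686, 672.5 and 657 CPM, between day 0 and the other days with no overlap on either side. The log2 fold change was 0.47 on day 1 (SE 0.10, adjusted p = 0.00175), 0.68 on day 2 (adjusted p = 2.13e-05) and 0.63 on day 3 (adjusted p = 4.47e-05). It was 0.69 on day 7 (adjusted p = 1.08e-05) and 0.58 on day 14 (adjusted p = 0.000122). Day 28 gave 0.28 and missed the threshold (95% confidence interval 0.07 to 0.50, adjusted p = 0.0729). Without replicate 3 of day 14, the day 28 value was 0.29 with an adjusted p of 0.0372, and the day 14 value was 0.44 (adjusted p = 0.00216). let-7e-5p differs from let-7i-5p at 5 positions, so the 2 members that moved together are among the least alike in sequence.

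let-7g-5p, the member nearest to let-7i-5p in sequence, moved the other way. It measured 6566, 5476 and 5893 CPM at day 0 and 6091, 6025 and 5455 CPM on day 1, which overlap. It then measured 5588, 5562 and 5490 CPM on day 2 and 5279, 5155 and 5661 CPM on day 3. On day 7 it measured 4607, 4730 and 5003 CPM, and on day 14 it measured 4763, 4923 and 4597 CPM. All 6 libraries of days 7 and 14 lay below the lowest day 0 library. On day 28 it measured 5311, 5359 and 5023 CPM, also below all of day 0. The log2 fold change was -0.32 on day 7 (SE 0.08, adjusted p = 0.00245) and -0.32 on day 14 (adjusted p = 0.00288), and -0.19 on day 28, which was not called (95% confidence interval -0.36 to -0.02, adjusted p = 0.152). The day 7 call was lost with the deposited library totals and no further scaling (-0.21, adjusted p = 0.122), and the day 14 call held under every scaling. When only the days compared entered the fit, the day 14 value was -0.34 (adjusted p = 0.0602). Calls on the low side were added on day 3 with RLE scaling, upper-quartile scaling and DESeq2 (-0.22, -0.26 and -0.22), and on day 28 with upper-quartile scaling and DESeq2 (adjusted p = 0.044 and 0.0438).

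let-7c-5p, which shares loci with both let-7b and miR-99a, measured 9357, 7693 and 7304 CPM at day 0. On day 2 it measured 10229, 9844 and 10697 CPM, above all of day 0. On day 3 it measured 10055, 9071 and 11125 CPM, which overlaps day 0. Its log2 fold change was 0.34 on day 2 (SE 0.13, adjusted p = 0.0353) and 0.32 on day 3 (adjusted p = 0.0472), and was not called on the other 4 days, where it lay between 0.12 and 0.26. The day 3 call was lost in 18 of the 21 fits that left out 1 library (adjusted p 0.0521 to 0.377 in those), and the day 2 call in 9 of them (adjusted p 0.0541 to 0.233). Upper-quartile scaling, no filter and DESeq2 also ended the day 2 call (adjusted p 0.0525 to 0.0802). The day 3 call was lost with these, RLE scaling, edgeR, a replicate block and only the days compared (adjusted p 0.0519 to 0.204). Among the fits that left out 1 library, the day 3 call held only without replicate 1 of day 0, replicate 2 of day 2 or replicate 1 of day 7. The day 2 call was lost without replicates 2 or 3 of day 0, replicate 1 of day 1, any library of day 2, replicate 3 of day 7, or replicates 2 or 3 of day 28.

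miR-98-5p is the member whose name does not carry let-7, and its hairpin neighbours let-7f-2. It measured 849, 705 and 671 CPM at day 0 and 948, 854 and 963 CPM on day 3. All 3 day 3 libraries were above all of day 0, the nearest of them only just. The log2 fold change on day 3 was 0.32 (SE 0.11, adjusted p = 0.0213). The call was lost in 11 of the 21 fits without 1 library (adjusted p 0.0535 to 0.283 in those), and with RLE scaling, upper-quartile scaling, DESeq2 and only the days compared (0.0688 to 0.164). The libraries concerned were replicates 2 and 3 of day 0, 1 and 2 of day 1, 1 and 3 of day 2, 2 and 3 of day 28, and replicate 3 of days 3, 7 and 14. On the other days its log2 fold change lay between -0.05 and 0.26. The day 2 libraries also stood above all of day 0 (0.26, adjusted p = 0.0602). It was called higher on day 2 with library totals (adjusted p = 0.0183). Leaving out replicate 1 of day 0, 3 of day 1 or 2 of day 7 did so too (0.0241 to 0.0495). On day 7 (0.24, adjusted p = 0.0817) it was called without replicate 1 of day 0, 2 of day 2 or 1 of day 3 (0.0299 to 0.048).

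let-7f-5p was the most abundant member on every day, at 22217 ± 2718 CPM (SD, n = 3) on day 0 and 21295 ± 392 CPM on day 28. Its 6 log2 fold changes against day 0 lay between -0.06 and 0.03, with 95% confidence intervals inside -0.24 to 0.21. let-7a-5p stood at 7062 ± 881 CPM on day 0 and 7242 ± 339 CPM on day 7. Its changes lay between -0.03 and 0.15, with intervals inside -0.23 to 0.35. let-7b-5p went from 2273 ± 200 to 2333 ± 192 CPM over the same days, with changes of 0.04 to 0.11 and intervals inside -0.22 to 0.37. let-7d-5p went from 1640 ± 134 to 1538 ± 67.8 CPM, with changes of -0.23 to -0.05 and intervals inside -0.43 to 0.15. These 4 were called on no day, and 32.7% of all miRNAs tested were called on none, so a lack of calls is common in the table. A p that misses the threshold does not show an unchanged level, but none of these intervals reached 0.63, the day 28 value of let-7i-5p. With other settings, let-7d-5p was called lower on day 14 (log2 fold change -0.28 with RLE scaling, adjusted p = 0.0297, and -0.23 with an adjusted p of 0.0607 as reported). Upper-quartile scaling, no filter and DESeq2 called it lower on day 14 too (adjusted p 0.0228 to 0.0483). Upper-quartile scaling also called it lower on day 7 (-0.28, adjusted p = 0.0278, beside -0.09) and on day 28 (-0.31, adjusted p = 0.0459, beside -0.19). let-7a-5p was called higher on day 2 with library totals alone (0.35, adjusted p = 0.0418).

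**Figure D2:**
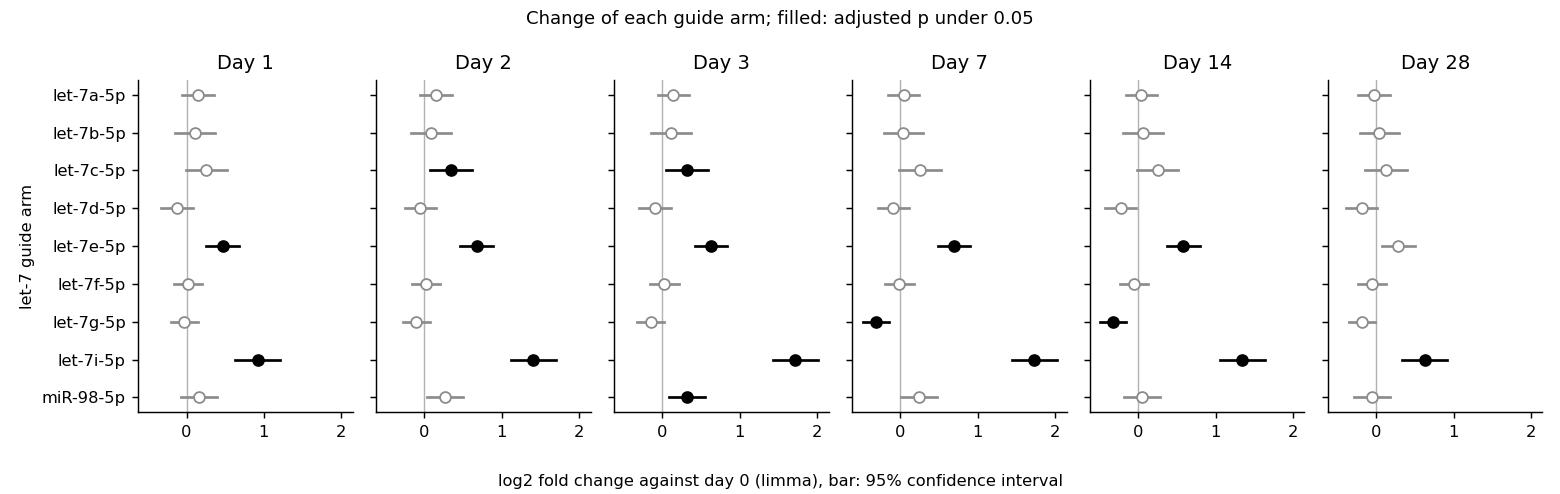
Each panel is 1 later day, and each point is the log2 fold change of a guide arm against day 0 (horizontal axis) with its 95% confidence interval from limma. Filled points passed the adjusted threshold of 0.05. let-7i-5p is far right on every day, let-7e-5p is filled on days 1 to 14, let-7g-5p is filled on the low side on days 7 and 14, let-7c-5p is filled on days 2 and 3 and miR-98-5p on day 3, and let-7a-5p, let-7b-5p, let-7d-5p and let-7f-5p are open throughout.

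Counted by day, 2 of 9 members were called on day 1, both higher, where 25.3% of all miRNAs tested were called (14.2% higher and 11.1% lower). On day 2, 3 of 9 were called, all higher, beside 43.4% of all (24.4% higher and 19% lower). On day 3 the count was 4 of 9, all higher, beside 49.4% (30.4% higher and 19% lower). Day 7 had 2 higher and 1 lower, beside 52.4% (29.7% higher and 22.7% lower). Day 14 had 2 higher and 1 lower as well, beside 42.9% (25.1% higher and 17.9% lower). Day 28 had 1 higher, beside 13% (11.1% higher and 1.86% lower). Calls in either direction made up a smaller share of the members than of the whole table on each of the 6 days. Calls on the high side made up a larger share of the members on days 1, 2 and 3, and not on days 7, 14 and 28. With 9 members, 1 more call would have put the members' share above that of the table on every day but day 7. Taking the 6 later days in turn, the libraries stood clear of all day 0 libraries for 2, 4, 3, 3, 3 and 4 members, beside 35.5%, 56.8%, 56.6%, 58.5%, 47.6% and 33.6% of all miRNAs. The median log2 fold change of the 9 was 0.15 on day 2 and 0.04 on day 7, beside 0.02 and 0.07 for all miRNAs tested. An F test over all days called 4 members, let-7e-5p, let-7g-5p, let-7i-5p and miR-98-5p, where 63.1% of all miRNAs passed it. These 4 were also called on at least 1 day, whereas let-7a-5p, let-7b-5p, let-7d-5p and let-7f-5p were called neither by day nor by the F test. let-7c-5p was called by day and not by the F test.

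A comparison that uses no day 0 library is day 28 against day 7, where 37.1% of all miRNAs were called (16.5% higher and 20.6% lower). let-7i-5p fell by 1.10 on the log2 scale (adjusted p = 7.65e-06), with all day 28 libraries below all day 7 libraries. let-7e-5p fell by 0.41 (adjusted p = 0.00365), also without overlap. miR-98-5p fell by 0.29 (adjusted p = 0.0468), a call that was lost in 12 of the 21 fits without 1 library (adjusted p 0.0609 to 0.24). It was also lost with a replicate block (adjusted p = 0.0579), RLE scaling (0.0543), upper-quartile scaling (0.157), no filter (0.11) and only the days compared (0.106). The groups did not overlap for 4 of 9 members, beside 51.7% of all miRNAs. The other 6 members were not called and lay between -0.13 and 0.13. The second comparison set the mean of days 7, 14 and 28 against that of days 1, 2 and 3 (late against early), where 36.9% of all miRNAs were called (19.3% higher and 17.6% lower) and 4.18% did not overlap. let-7g-5p fell by 0.18 (adjusted p = 0.00403), and miR-98-5p fell by 0.17 (adjusted p = 0.0416, lost in 14 of the 21 fits without 1 library, at 0.0542 to 0.158, and with a replicate block, at 0.0525). For none of the 9 did the groups stand apart without overlap. Other settings added calls on the low side here. let-7a-5p (-0.13, adjusted p = 0.0809 as reported) was called with library totals, RLE scaling, upper-quartile scaling and DESeq2 (adjusted p 0.0109 to 0.0476). let-7d-5p was called with library totals and upper-quartile scaling (adjusted p = 0.0423 and 0.0495). let-7e-5p and let-7f-5p were called with library totals (adjusted p = 0.0497 and 0.0203). let-7i-5p gave -0.11 and was not called (95% confidence interval -0.28 to 0.05, adjusted p = 0.307). That outcome turns on 1 library: without replicate 3 of day 14, the value was -0.18 with an adjusted p of 0.0278.

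Within a library the members can be set against each other with no scaling between libraries. These ratios are a description, since let-7i-5p was chosen for this course. let-7i-5p made up 5.26% ± 0.24 of the summed let-7 reads on day 0 (SD, n = 3). Its share was 9.01% ± 0.25 by day 1 and 12.1% ± 0.51 by day 2, and came to 14.7% ± 1.02 on day 3 and 15.3% ± 1.23 on day 7. It then came to 12.5% ± 2.48 on day 14 and 8.09% ± 0.86 on day 28. The share of let-7f-5p ran opposite, from 43.3% on day 0 to 37.4% on day 3 and 41.3% on day 28, and that of let-7g-5p went from 11.7% on day 0 to 8.22% on day 7. Since shares sum to a whole, a larger share of let-7i-5p lowers the others without a change in their levels.

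**Figure D3:**
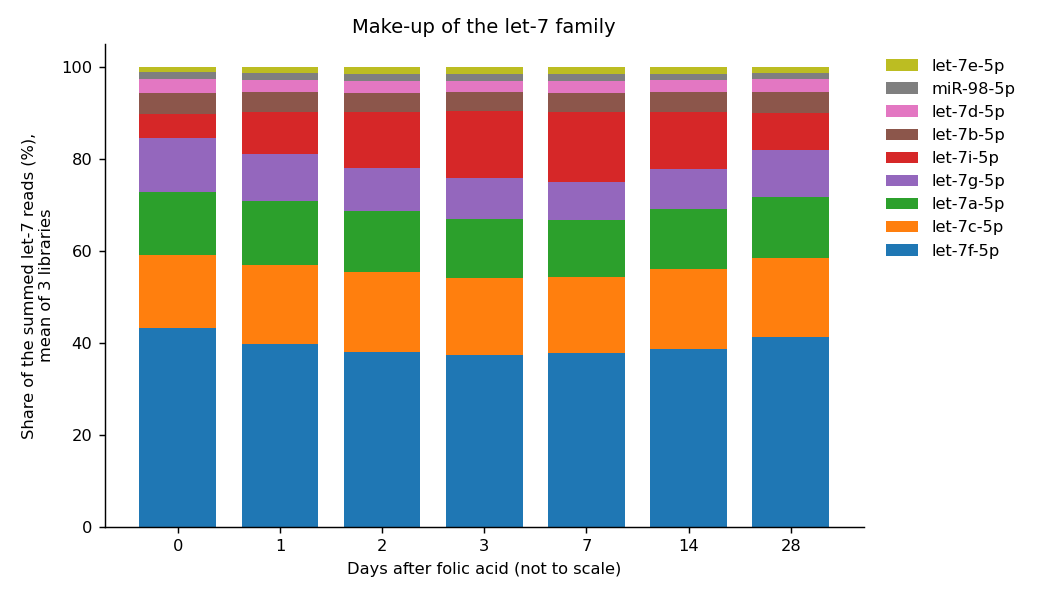
Stacked bars give the mean share (%) of each guide arm in the summed let-7 reads of a library, 3 libraries a day, against the day after folic acid (axis not to scale). let-7f-5p is the largest block on every day, and the let-7i-5p block (red) widens from 5.26% on day 0 to 15.3% on day 7 and narrows to 8.09% on day 28.

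Against the sum of the other 8 members, let-7i-5p stood at a log2 ratio of -4.17 ± 0.07 on day 0 and -2.47 ± 0.13 on day 7, a difference of 1.70. On days 1, 2, 3 and 28 the difference from day 0 was 0.83, 1.31, 1.63 and 0.66. Every library of a later day had a higher ratio than every day 0 library. These differences are close to the scaled log2 fold changes of let-7i-5p, and the summed level of the other 8 members was 48582 ± 5608 CPM on day 0, 51766 ± 2004 CPM on day 2 and 47357 ± 1285 CPM on day 28. The ratio of let-7i-5p to let-7g-5p, which differ at 2 bases, was 0.451 ± 0.029 on day 0 and 0.868 ± 0.017 a day later. The mean was 1.65 ± 0.12 on day 3 and 1.87 ± 0.21 on day 7, and was 0.799 ± 0.110 on day 28. let-7i-5p thus passed let-7g-5p in level by day 2 and was back below it by day 28. In the order of the members by mean level, let-7i-5p was the fifth at day 0, where it overlapped let-7b-5p below it. On day 7 it was the third and overlapped let-7c-5p above it, and on day 28 it was the fifth again, with no overlap on either side. The whole family held 4.88% ± 0.78 of all miRNA reads on day 0, 6.51% ± 0.46 on day 3 and 4.62% ± 0.17 on day 28. Without let-7i-5p the family's share was 4.62% ± 0.75 on day 0 and 5.56% ± 0.46 on day 3.

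The passenger strands gave a second reading of some precursors, with 9 rows for the 12 hairpins. Since mature guides and passengers are cut from the same hairpin, their levels share a source but differ in how long each strand lasts. let-7i-3p was scarce, with 34 to 184 reads a library. It measured 11.2, 12.8 and 11.6 CPM at day 0, and on day 7 it measured 30.1, 27.3 and 20.9 CPM. All 3 day 7 libraries were above all of day 0. The log2 fold change of let-7i-3p was 0.65 on day 2 (SE 0.18, adjusted p = 0.00593), 0.89 on day 3 (adjusted p = 0.000353), 1.06 on day 7 (adjusted p = 5.05e-05) and 0.80 on day 14 (adjusted p = 0.00122). Day 28 gave 0.61 (adjusted p = 0.0256), a call that was lost with library totals (adjusted p = 0.0928), with no filter (adjusted p = 0.0831) and in 4 of the 21 fits that left out 1 library. Those left out replicates 1 or 3 of day 0 or of day 28, with adjusted p of 0.0639 to 0.118. Day 1 gave 0.42 and was not called (95% confidence interval 0.04 to 0.79, adjusted p = 0.101). The guide was more abundant than its passenger by a factor of 228 ± 33 on day 0, 388 ± 47 on day 3 and 224 ± 23 on day 28, so the guide had the larger rise on the days between. The ratio of the arms was not tested.

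**Figure D4:**
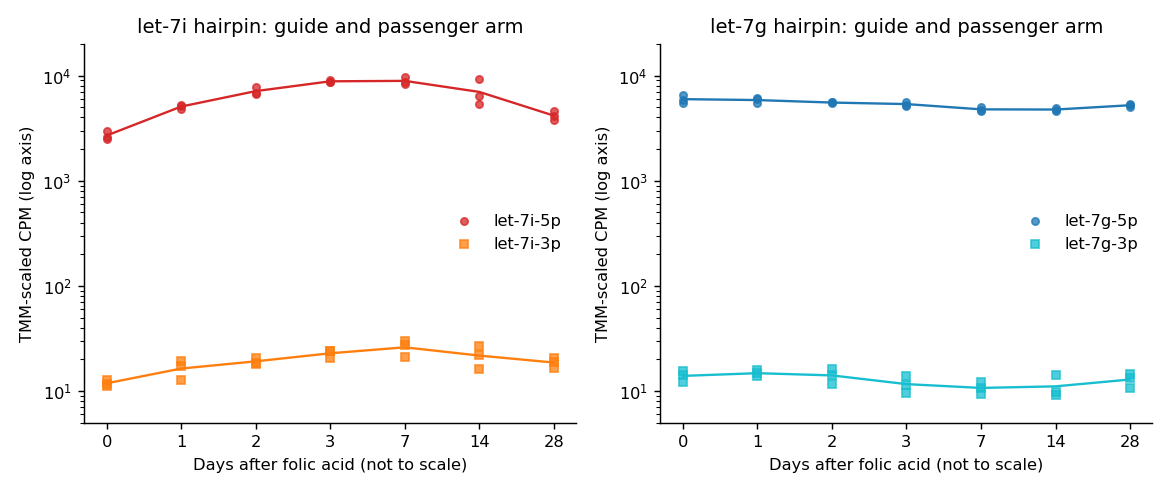
The panels plot the guide arm and the passenger arm of the let-7i and let-7g hairpins in TMM-scaled CPM on a log axis, against the day after folic acid (axis not to scale), with 1 point a library and lines through the day means. Both let-7i arms are above day 0 on days 2 to 28, at levels that differ by a factor of 200 to 443, while let-7g-3p lies between 9.24 and 16.3 CPM.

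The other passenger strands were called on 3 days or fewer. let-7e-3p measured 18.2, 19.5 and 18.5 CPM at day 0 and 28.2, 24.1 and 25.4 CPM on day 1, without overlap. Its log2 fold change was 0.44 on day 1 (adjusted p = 0.0406) and 0.42 on day 2 (adjusted p = 0.0334), and it was not called later, when let-7e-5p was still higher. The day 1 call was lost in 8 of the 21 fits without 1 library (adjusted p 0.055 to 0.148), and also with a replicate block, no filter, DESeq2 and only the days compared (adjusted p 0.0513 to 0.0708). The day 2 call was lost without any library of day 0 or replicates 1 or 3 of day 2 (adjusted p 0.0526 to 0.182) and with no filter (adjusted p = 0.0923). let-7d-3p, the most abundant passenger strand, measured 660, 519 and 494 CPM at day 0 and 786, 729.5 and 693 CPM on day 1. It was called higher on days 1, 2 and 3, by 0.41, 0.37 and 0.32 on the log2 scale (adjusted p = 0.0121, 0.014 and 0.0235), while its guide let-7d-5p was called on no day. The day 1 call was lost without replicates 2 or 3 of day 0 or replicate 1 of day 1 (adjusted p 0.0552 to 0.108). The day 2 call was lost without replicates 2 or 3 of day 0 or 1 or 3 of day 2 (adjusted p 0.0555 to 0.133), and the day 3 call in 11 of the 21 fits (adjusted p 0.0595 to 0.303). With only the days compared, the day 1 and day 3 calls were lost (adjusted p = 0.0722 and 0.111), and RLE scaling, upper-quartile scaling and DESeq2 also ended the day 3 call (adjusted p 0.069 to 0.159). let-7b-3p fell by 0.37 on day 7 (adjusted p = 0.0265), a call that was lost with library totals (adjusted p = 0.103) and with only the days compared (adjusted p = 0.076). It was also lost without replicate 2 of day 0, replicate 1 of day 3 or replicates 1 or 3 of day 7 (adjusted p 0.0507 to 0.153). let-7g-3p was called on no day, and its day 7 value was -0.35 (95% confidence interval -0.73 to 0.02). let-7f-3p and miR-98-3p were also called on no day against day 0. Their log2 fold changes lay between -0.15 and 0.19 for let-7f-3p and between -0.37 and 0.07 for miR-98-3p. The F test called let-7d-3p and let-7i-3p (adjusted p = 0.00566 and 0.000758), beside 63.1% of all miRNAs. Late against early, where 36.9% were called, let-7d-3p gave -0.31 (adjusted p = 0.00109). let-7e-3p gave -0.27 there (adjusted p = 0.021, lost in 5 of the 21 fits without 1 library). let-7b-3p rose by 0.43 from day 7 to day 28 (adjusted p = 0.0151). That call was lost with library totals (0.149) and without replicate 3 of day 7 (0.063). The rows of let-7a-3p and let-7c-3p are not separate measurements. In RefSeq, let-7a-1-3p and let-7c-2-3p are the same molecule, and the 2 rows held equal reads in 20 of the 21 libraries. They were called on no day against day 0, but by the F test (adjusted p = 0.0368) and as lower in the mean of days 7, 14 and 28 against that of days 1, 2 and 3 (-0.28, adjusted p = 0.00375).
let-7a-1-3p: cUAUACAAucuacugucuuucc
let-7c-2-3p: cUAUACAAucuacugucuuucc

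let-7e is the member with the closest cluster, and the guides of its neighbours on the same strand passed the test on no day. They are printed to show that they carry other seeds, again in capitals.
miR-99b-5p: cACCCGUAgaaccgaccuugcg
let-7e-5p: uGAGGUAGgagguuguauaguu
miR-125a-5p: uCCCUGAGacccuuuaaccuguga

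miR-99b-5p varied among the day 0 libraries, at 1785, 2689 and 4809 CPM, and was called on no day. Its day 7 log2 fold change was 0.29 with a 95% confidence interval from -0.24 to 0.81. miR-125a-5p measured 2774, 3726 and 5610 CPM at day 0 and was called on no day, with a day 7 value of -0.14 (95% confidence interval -0.52 to 0.24). Replicate 3 of day 0 was the highest for both. The day 7 change of let-7e-5p, 0.69, lies inside the interval of miR-99b-5p and above that of miR-125a-5p. The passenger strands of the same hairpins did move. miR-99b-3p measured 22.4, 18.5 and 26.9 CPM at day 0 and 50.3, 49.3 and 53.9 CPM on day 2. It was higher on days 1 to 14, with log2 fold changes of 0.73, 1.16, 0.99, 0.85 and 0.57 (adjusted p = 0.00789, 6.17e-05, 0.000257, 0.000874 and 0.02). The day 1 call was lost without replicate 2 of day 0 or of day 1 (adjusted p 0.052 to 0.0533). The day 14 call was lost without replicates 1 or 2 of day 0 or replicate 3 of day 14 (adjusted p 0.0553 to 0.162), and with only the days compared (0.0901). miR-125a-3p measured 9.12, 9.55 and 8.40 CPM at day 0 and 19.8, 18.2 and 22.0 CPM on day 2. It was higher on days 1, 2 and 3 by 0.52, 1.06 and 0.67 (adjusted p = 0.0369, 7.13e-05 and 0.00388). The day 1 call was lost in 9 of the 21 fits without 1 library (adjusted p 0.0553 to 0.203) and with no filter, DESeq2 and only the days compared (0.0579 to 0.0821).

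**Figure D5:**
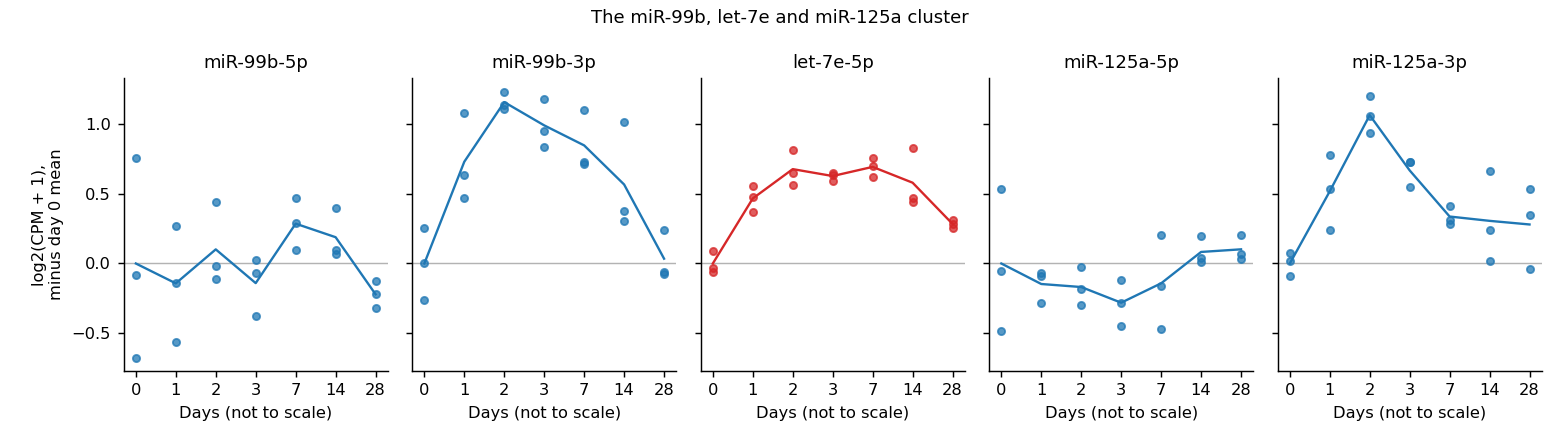
Panels follow the arms of the miR-99b, let-7e and miR-125a cluster as log2(TMM-scaled CPM + 1) minus the day 0 mean, with 1 point a library and lines through the day means, against the day (axis not to scale). let-7e-5p (red) is above day 0 throughout, miR-99b-3p and miR-125a-3p peak on day 2, and the guides miR-99b-5p and miR-125a-5p show a wide day 0 spread.

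The miR-99a neighbour of let-7c-1 went down while let-7c-5p did not. miR-99a-5p measured 284, 397 and 467.5 CPM at day 0 and 235, 279 and 232 CPM on day 2, without overlap. It fell on days 1, 2, 3 and 7 by 0.53, 0.60, 0.58 and 0.43 on the log2 scale (adjusted p = 0.00917, 0.00204, 0.00232 and 0.0166). The day 7 call was lost with library totals (adjusted p = 0.0654), with only the days compared (0.0569) and without replicates 2 or 3 of day 0 or replicate 1 of day 7 (adjusted p 0.0543 to 0.0726). miR-99a-3p fell on day 2 by 0.62 (adjusted p = 0.00532) and on day 3 by 0.68 (adjusted p = 0.00234), and the day 2 call was lost with library totals (-0.44, adjusted p = 0.0578). miR-125b-3p, from hairpins of which 1 lies with let-7a-2, measured 138, 174 and 143 CPM at day 0 and 88.2, 93.1 and 97.1 CPM on day 2. It fell on days 1 to 14, by 0.59, 0.70, 0.62, 0.54 and 0.39 (adjusted p = 0.00158, 0.000166, 0.000359, 0.00112 and 0.0173). Its day 14 call was lost without replicate 2 of day 0 or replicate 3 of day 14 (adjusted p 0.0593 to 0.097), with library totals (0.0524) and with only the days compared (0.0639). miR-125b-5p fell on day 3 alone, by 0.39 (adjusted p = 0.0335), a call that was lost with library totals (adjusted p = 0.318), no filter (0.0689) and only the days compared (0.0907). It was also lost without replicate 3 of day 0, replicate 2 of day 2, replicates 1 or 3 of day 3 or replicate 1 of day 7 (adjusted p 0.0568 to 0.144). miR-100-5p was called on no day against day 0, where its libraries spread from 92.2 to 355 CPM. Of the 10 rows of miR-99, miR-100 and miR-125, 9 passed the filter, and miR-100-3p did not.

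By a set rule, the 5 miRNAs outside the family that followed let-7i-5p most closely over the 21 libraries were named, from 284 miRNAs whose mean level reached 10 CPM. They were miR-132-3p (Pearson r 0.940), miR-214-3p (0.921), miR-130b-3p (0.920), miR-223-3p (0.918) and miR-21-5p (0.909). For let-7e-5p they were miR-132-3p (0.933), miR-212-3p (0.901), miR-21-5p (0.900), miR-31-5p (0.867) and miR-223-3p (0.867). miR-21-5p is the best known of these in kidney injury, and its mean level went from 14742 CPM on day 0 to 76267 CPM on day 7. miR-132-3p went from 51.3 to 313 CPM and miR-223-3p from 43.8 to 243 CPM over the same days. let-7i-5p and let-7e-5p correlated at 0.953 with each other, more closely than either did with any of these. Of the other members, let-7i-5p correlated at 0.67 with let-7c-5p, 0.66 with miR-98-5p, 0.43 with let-7a-5p and 0.28 with let-7b-5p. Its r was 0.12 with let-7f-5p, -0.04 with let-7d-5p and -0.56 with let-7g-5p. The points share their libraries and the time course, so these values describe likeness only.

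Markers of the cell types in the kidney moved over the same days. The 7 leukocyte markers summed to 937 to 1235 CPM on day 0, 1322 to 1506 CPM on day 1, 2287 to 3345 CPM on day 7 and 2009 to 2159 CPM on day 28. Of the 7, 4 were called higher on day 1, 5 higher and 1 lower on day 2, and 5 higher on day 7. The mean of miR-150-5p went from 306 CPM on day 0 to 194 CPM on day 2 and 269 CPM on day 7. Most of the leukocyte sum was miR-142-5p, with means of 601 of 1099 CPM on day 0 and 1781 of 2730 CPM on day 7. The 5 mesenchymal markers summed to 1995 to 2402 CPM on day 0, 1947 to 2443 CPM on day 1, 5824 to 6053 CPM on day 7 and 4210 to 5267 CPM on day 28, with none called on day 1 and all 5 on day 7. Replicate 3 of day 14, high in let-7i-5p and let-7e-5p, had the highest mesenchymal sum of all, 8900 CPM, beside 6096 and 5376 CPM in the other libraries of that day. Its leukocyte sum was 2389 CPM, between theirs, and its erythroid sum was 694 CPM, beside 2752 and 834.5 CPM. Its tubule sum was the lowest of that day, 377037 CPM beside 477283 and 482363 CPM, as was its endothelial sum, 9521 CPM beside 12772 and 12650 CPM. Of the 7 tubule markers, 6 had a row, and they summed to 417568 to 515295 CPM on day 0, 312748 to 357655 CPM on day 2 and 482091 to 520676 CPM on day 28. They did not move as 1: 4 were called lower on day 2, 1 higher and 3 lower on day 7, 2 higher and 3 lower on day 14, and 1 higher on day 28. From day 0 to day 7 the mean of miR-192-5p went from 120904 to 66301 CPM, and that of miR-204-5p from 316 to 484 CPM. The 2 endothelial markers summed to 13246 to 15446 CPM on day 0 and 10549 to 11095 CPM on day 7. Of the 5 erythroid markers, 4 had a row, with sums of 1294 to 3378 CPM on day 0, 4510 to 7659 CPM on day 1 and 4732 to 9596 CPM on day 2. The erythroid sums were then 1140 to 1771 CPM on day 3 and 766 to 2380 CPM on day 7. Of the 4 rows, 1 was called higher on day 1 and 3 on day 2, whereas 2 were called lower on day 3 and 2 on day 14. Of the 2 neuron markers, miR-124-3p was listed at 0 in all libraries of days 1, 2, 3, 7 and 28, whereas miR-9-5p had day means of 209 to 272 CPM. The part of these cell types in the courses of the let-7 members was not tested.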

How the data were processed

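The authors deposited 1 table of CPM over 1125 mature miRNAs in 21 libraries of whole kidney, in which every column sums to the same total. The submitters' processing notes name CASAVA 1.8 and the build mm9. For the aligner, the counter and the miRBase version, the name is not given in the sources used here. Whole reads were recovered from the deposited CPM for 100% of values within 0.05 of a read (largest distance 0.0354). A count of 0 allows up to 3 reads, 0.422 to 1.04 CPM by library, for counting error only.

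The edgeR 4.0.16 function filterByExpr (minimum count 10) left 431 miRNAs, and 250 rows had no read. CPM were scaled by TMM, and limma 3.58.1 (limma-trend, R 4.3.3) was fitted to log2(CPM + 1) with a mean for each day, after tests on simulated data. The pseudocount understates the change of scarce miRNAs. Adjusted p-values are Benjamini-Hochberg values from limma over 431 miRNAs, two-sided, unless another tool is named. The alternatives were other scalings, pseudocounts of 0.5 and 5, no filter, edgeR's quasi-likelihood test and DESeq2 1.42.0 on recovered reads, fits to the days compared, a replicate block, and leaving out each library. On the recovered reads, edgeR called 105, 193, 211, 225, 184 and 52 miRNAs from day 1 to day 28 against day 0. No libraries were duplicates.

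The members, the lists of passenger strands, neighbours and markers, and the tests were chosen with earlier results of these data known. The text names all members, passenger strands and neighbours, and the 5 miRNAs most correlated with let-7i-5p and with let-7e-5p.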

Additional observations from a re-analysis of the deposited data

How the results depend on the processing

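The calls of let-7i-5p against day 0, and its fall from day 7 to day 28, held in every alternative, as did the calls of let-7e-5p on days 1 to 14. No called value changed sign. Leaving out 1 library kept the side of the threshold, or a value near the reported one, for 2912 values. It moved 32 counts, ended 144 calls and added 14. A kept count need not be equal to the reported one. Members called higher on day 2 ranged from 2 to 4 (3 as reported) and were taken as kept. So were all miRNAs called on day 1, which ranged from 82 to 122 (109 as reported). By the same rule, the other alternatives kept 1376 values, moved 20 counts, ended 57 calls and added 21. With library totals alone, 5 members were higher on day 2 (3 as reported), 0 lower on day 7 (1 as reported) and 6 lower in late against early (2 as reported). That scaling moved the median of all miRNAs by 0.19 on day 2, 0.18 on day 3, 0.11 on day 7, -0.13 in late against early and -0.18 in day 28 against day 7. With it, the share of calls that were higher on days 1, 2, 3 and 28 was 70.7%, 75.3%, 74.4% and 75.6%, beside 56.0%, 56.2%, 61.5% and 85.7% as reported. It was 29.3% (52.2%) in late against early and 20% (44.4%) in day 28 against day 7. With upper-quartile scaling, 2 members were higher and 1 lower on day 3, 2 lower on day 7, 2 lower on day 14, 2 lower on day 28 and 4 lower in late against early. The median then moved by -0.18 on day 7 and -0.12 on day 28, and higher calls were 45.1% (56.6%) on day 7, 58.0% (85.7%) on day 28 and 38.2% (52.2%) in late against early. RLE scaling gave 2 higher and 1 lower on day 3 and 2 lower on day 14. DESeq2 gave 2 higher and 1 lower on day 3, 2 lower on day 14 and 1 lower on day 28. No filter gave 2 lower on day 14. Fits to the days compared gave 2 higher on day 3 and 0 lower on day 14. The cause of these shifts was not tested.

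Without 1 library, the members called higher ranged from 2 to 4 on day 3, 2 to 4 on day 7 (4 without replicate 1 of day 0) and 1 to 2 on day 28 (2 without replicate 3 of day 14). Those called lower ranged from 0 to 1 on day 3 (1 without replicate 3 of day 0), 1 to 2 on day 14 (2 without replicate 3 of day 0 or of day 14 or replicate 2 of day 7) and 1 to 3 in late against early. All miRNAs called on day 28 ranged from 37 (without replicate 1 of day 28) to 66, with 56 as reported. The value of let-7i-5p in late against early ranged from -0.18 to -0.048. With a replicate block, 1 member was lower in late against early, since miR-98-5p was lost (adjusted p = 0.0525), and the calls of let-7c-5p on day 3 (adjusted p = 0.0568), let-7e-3p on day 1 (0.0513) and miR-98-5p in day 28 against day 7 (0.0579) were lost. It ended no other call of a member, passenger strand or neighbour. The labels do not say whether the replicate numbers pair the libraries, and correlations do not decide it. Same-numbered libraries of different days correlated at a mean of 0.00419 over 63 pairs. Single pairs ran from -0.363 to 0.267, and 15 of the 63 exceeded 0.1. The 126 pairs with different numbers, which hold the same libraries, had a mean of -0.00198, so the means are not independent. These are not correlations of the levels themselves, which are close between libraries. Of the 21 libraries, 6 correlated best with their own number. Passenger strands with 33 reads in their shallowest library have the least precision.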
